A study of Ictidomys tridecemlineatus with 15 samples.

Results

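The 100 members described here are the matrix rows, each a gene, whose counts in the developing retina of the 13-lined ground squirrel (13LGS) were most specific to retinal ganglion cells (RGCs). They were selected on measured values. Counts were summed per row over all cells of each of the 12 annotated types and converted to counts per 1000000 UMIs (CPM), and each row was scored as the log2 ratio of its RGC level to its highest level in any other type, with 10 CPM added to both. The 100 highest scores among the 3303 rows with 50 CPM or more in RGCs were taken, out of 33658 rows with a count. The files do not pair gene names with matrix rows, so members are given by row number counted from 1, and neither the function of a single row nor the level of a known ganglion cell marker is analysed here.

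Whole retinas of untreated 13LGS, a cone-rich rodent, were profiled by droplet single-cell RNA-seq, in which each count is 1 captured molecule (unique molecular identifier, UMI). Of the libraries used, 14 in all, 7 were embryonic (2 at each of E21, E24 and E26, lettered a and b, and 1 at E18) and 7 were postnatal (2 at each of P8 and P12, and 1 at each of P4, P17 and P21), with birth at E27. The labels do not say which libraries came from separate animals or pools, so p-values measure only the spread between these libraries. Of 46474 cells, 7083 were annotated as RGCs, 5700 of them embryonic and 1383 postnatal, and the embryonic cells gave 83.7% of the RGC UMIs.

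Ganglion cells are the projection neurons of the retina, and their axons form the optic nerve. They are among the first neurons to leave the progenitor pool, at a time when transcription factors such as Atoh7, Pou4f2 and Isl1 act in this lineage, and they go on to extend axons, form synapses and become electrically excitable. Amacrine cells (AC) are the inhibitory interneurons that contact them, horizontal cells (HC) are interneurons of the outer retina, bipolar cells (BC) carry photoreceptor signals inward, and Early_RPC and Early_NG are the names the cell table gives to early progenitors and early neurogenic cells.

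The depth behind these values differed between stages. The summed RGC UMIs per library ranged from 640859 (P8b) to 12495373 (E24b), and the median UMIs per RGC ranged from 7573 to 14126 before birth and from 3180 to 14750 after it. Cells kept out of the type means were compared with those means, to see whether the matrix and the cell table list the cells in 1 order. Of 3000 such cells 71.2% fell nearest their own type, and 423 of 480 RGCs (88.1%) did, against 5.93% and 0 after shuffling; the types came from these same counts, so this does not test the types. Of 46210 barcodes, 263 occurred in 2 or more libraries, and 11 were shared by the libraries of 1 time point.

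The values that chose the members are given here as a description. Scores ran from 1.11 to 4.77 with a median of 1.64, and RGC levels from 50.1 to 10127 CPM with a median of 168 CPM. The level in RGCs was 2.28 to 48.4 times that in the next type, with a median of 3.73 times, and it was more than 8 times as high for 20 members and more than 4 times for 45. The next type was AC for 44 members, Early_NG for 15, HC for 15, rods for 8, cones for 5 and another type for the other 13. The members just inside the cut on rank were row 19336 (score 1.138), row 2667 (1.115) and row 9473 (1.108), and the rows just outside it were row 32798 (1.106), row 19950 (1.097) and row 3701 (1.081). On the limit of RGC level, row 5726 (50.1 CPM) lay just inside and row 31972 (49.96 CPM) just outside.

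Row 21522 led the list, with 605 CPM in RGCs against 12.5 CPM in Early_NG, the next type. It was followed by row 20743 (780 CPM against 32.1 CPM in Early_NG), row 11720 (1134 CPM against 51.5 CPM in AC) and row 11721 (775 CPM against 37.0 CPM in HC). Row 17562 (175 CPM against 3.72 CPM in cones) had nearly as wide a gap as row 21522 at a lower level. The next 5 by score were row 3853, row 29700, row 5912, row 16487 and row 32594, at 292 to 1261 CPM in RGCs. Rows 11720 and 11721 are neighbours in the matrix, and in all 7 pairs of members had consecutive row numbers; the files do not state how rows were ordered.

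The members together held 6.21% of all RGC UMIs. That sum was dominated by a few abundant rows, since the 5 with the highest levels (row 6525, row 20747, row 25727, row 10959 and row 8959) gave 54.0% of it. None of these 5 was among the 30 highest scores: row 10959 ranked 35th, row 25727 49th, row 8959 50th, row 20747 51st and row 6525 73rd.

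**Figure D1:**
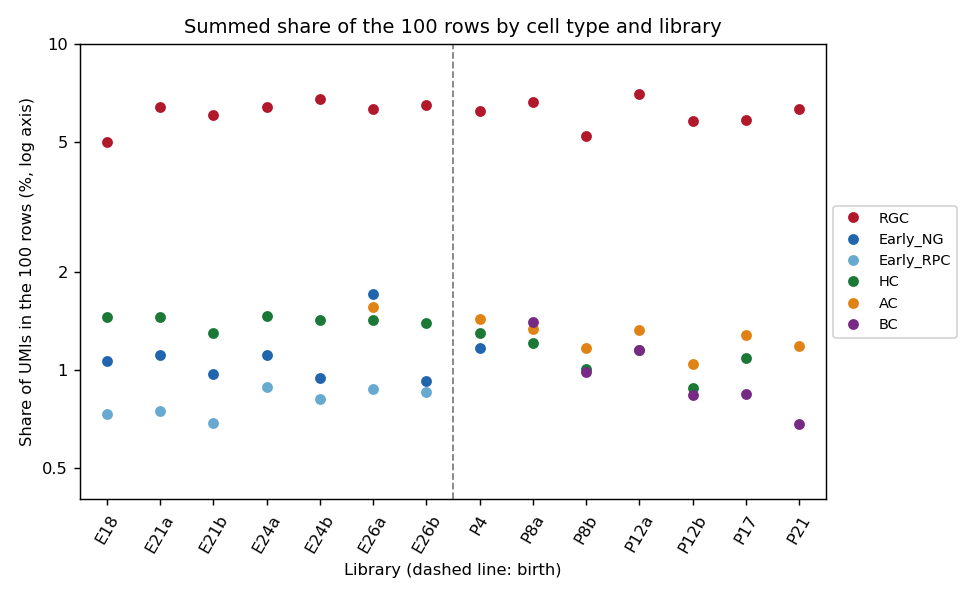
Share of UMIs held by the 100 rows (%, log axis) in each library, with 1 point for each cell type that had at least 10 cells in that library. The RGC points lie between 4.99% and 7.02% on both sides of birth, and every point of the other 5 types shown lies under 2%.

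The summed share in RGCs was alike before and after birth. It ran from 4.99% (E18) to 6.77% (E24b) over the embryonic libraries, with a mean of 6.20% ± 0.578 (SD, n = 7), and from 5.20% (P8b) to 7.02% (P12a) over the postnatal libraries, with a mean of 6.14% ± 0.597 (SD, n = 7). The ranges overlapped almost fully. The lowest share of each stage was in the library with the lowest median UMIs per RGC of that stage, E18 and P8b. When every cell was thinned to 1000 UMIs, which left out 2 embryonic and 8 postnatal RGCs, the median RGC carried 23 of the 100 members before birth and 26 after it.

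The rule summed these same libraries, so the values within each library describe the members and are no separate support for them. RGC was the highest of the types with at least 10 cells for 93 to 100 members, depending on the library, and for 80 members it was the highest in all 14 libraries. For 8 members it was the highest in fewer than 12. The next type was most often HC in 6 of the 7 embryonic libraries and in P4, and AC from P8 on. The membership itself depended on age: with the rule applied to embryonic libraries alone 64 of the 100 members were chosen again, and with postnatal libraries alone 52, although 91 members were still highest in RGCs there.

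Within RGCs, the members split by stage in both directions. The contrast of the 7 postnatal with the 7 embryonic libraries was fitted with edgeR's quasi-likelihood test on the summed RGC counts of all 13933 rows that passed the filter on low counts, which all 100 members did, with calls at an adjusted p (Benjamini-Hochberg) below 0.05. After birth, 30 members were higher (against 26.5% of all rows tested) and 41 were lower (against 26.9% of all rows), so 71 were called in a comparison that called 53.3% of all rows. Embryonic cells gave most of the RGC UMIs that chose the members, so the balance of rises and falls rests partly on the rule. Members had to reach 50 CPM in RGCs, which only 3303 rows did, so all rows include less abundant ones. With all rows of at least 10 counts, 69 members were called against 42% of all rows. Shares among rows of like abundance were not computed, here or for the slopes below. The members changed by a median of 0.85 on the log2 scale in either direction, against 0.59 over all rows. Changes of 2-fold or more were called for 20 members that rose (14% of all rows) and 21 that fell (13.3% of all rows), and changes of 4-fold or more for 7 (4.38%) and 2 (2.86%). Depth and stage moved together, and thinning every library to the smallest RGC sum left 28 higher and 41 lower, against 24.5% and 24.6% of all rows.

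**Figure D2:**
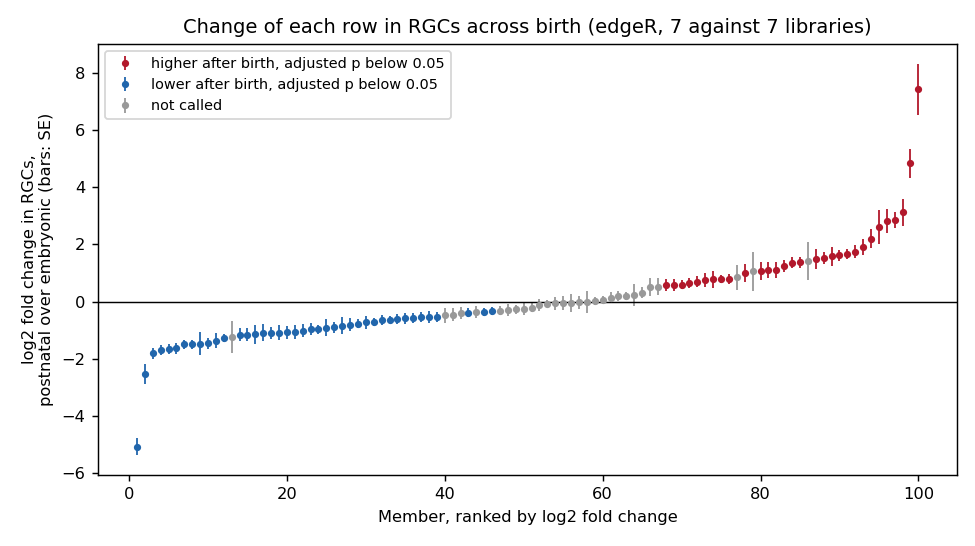
log2 fold change of each of the 100 rows in RGCs, postnatal over embryonic (y axis, bars: SE), ranked from lowest to highest (x axis) and coloured by the edgeR call. The 30 red points lie above 0 and end in row 20263 at 7.43, and the 41 blue points lie below 0 and begin with row 32594 at -5.09.

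Stage groups that did not overlap at all were less frequent than calls. The library levels of 18 members lay wholly higher after birth (14.5% of all rows tested did so) and those of 12 lay wholly lower (7.7% of all rows). Where the stages were compared time point by time point, the mean level peaked at P21 for 19 members, at E21 for 18, at P4 for 17 and at E26 for 16, and at the other 5 time points for 3 to 8 each. Peaks of the members thus gathered neither at a single age nor on a single side of birth. E18, P4, P17 and P21 are single libraries, while the other ages are means of a pair. Peak ages of all rows were not counted, so these counts only describe the members.

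The largest rise was that of row 20263, of which the RGCs of E18 and E21 had no UMI. A count of 0 allows up to 0.333, 0.418 and 0.343 CPM in E18, E21a and E21b (3 counts, counting error only). Its level had a median of 0.16 and a highest value of 10.6 CPM over the 7 embryonic libraries, and 267 to 957 CPM with a median of 834 CPM after birth. Every postnatal library lay far above every embryonic one, and the log2 fold change was 7.43 ± 0.91 (SE, edgeR, adjusted p = 5.2e-06). Row 18327 ran from 7.55 to 45.8 CPM before birth (median 29.4) and from 356 to 2309 CPM after it (median 660), a log2 fold change of 4.85 ± 0.51 (SE, edgeR, adjusted p = 1.2e-06). Its P21 library stood well above the other postnatal libraries, the next of which had 878 CPM.

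Rows 2667, 20856 and 26349 rose by smaller steps, also with no overlap between stages. Row 2667 had 4.11 to 48.7 CPM (median 20.5) before birth and 133 to 330 CPM (median 214) after it, with a log2 fold change of 3.13 ± 0.48 (SE). Row 20856 had 16.5 to 74.1 CPM (median 58.2) and then 341 to 533 CPM (median 376), with 2.86 ± 0.28. Row 26349 had 3.78 to 62.7 CPM (median 33.7) and then 195 to 354 CPM (median 236), with 2.82 ± 0.41. All 3 had their highest embryonic level in E26b and their lowest in E18.

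Row 32594, the tenth by score, fell most. It was at 239 to 587 CPM before birth (median 296) and at 6.47 to 28.1 CPM after it (median 9.79), and the log2 fold change was -5.09 ± 0.29 (SE, edgeR, adjusted p = 3.5e-09). No postnatal library came near an embryonic one. Row 18972 went from 250 to 682 CPM (median 517) to 35.1 to 203 CPM (median 76.5), with a log2 fold change of -2.54 ± 0.34 (SE). P4 was its highest postnatal library and E26a its lowest embryonic one, and the stages did not overlap.

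The other large falls were those of row 23569 (181 to 330 CPM before birth, 48.6 to 101.4 CPM after it, log2 fold change -1.82), row 5912 (994 to 2004 CPM, then 337 to 668 CPM, -1.70) and row 76 (50.4 to 96.8 CPM, then 14.5 to 32.8 CPM, -1.66). In each the postnatal libraries all lay below the embryonic ones. Row 32594 was detected after thinning in 24.4% of embryonic and 0.873% of postnatal RGCs (61.7% and 8.82% unthinned, at medians of 10072 and 8206 UMIs per cell). In postnatal BC, with 5.30 CPM of it over all libraries, it was detected in 0.487% of thinned cells (1.61% unthinned, median 2236.5 UMIs). In HC it had 14.3, 11.5 and 10.5 CPM in P4, P12b and P17, above the 14.02, 6.47 and 7.08 CPM in RGCs. These HC levels rest on few UMIs, from 124, 76 and 192 cells, and at P4 the levels of both types were nearly equal. In P8a, P8b and P12a the HC level was below that of RGCs. RGC was thus the highest type for this row in 11 of the 14 libraries.

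**Figure D3:**
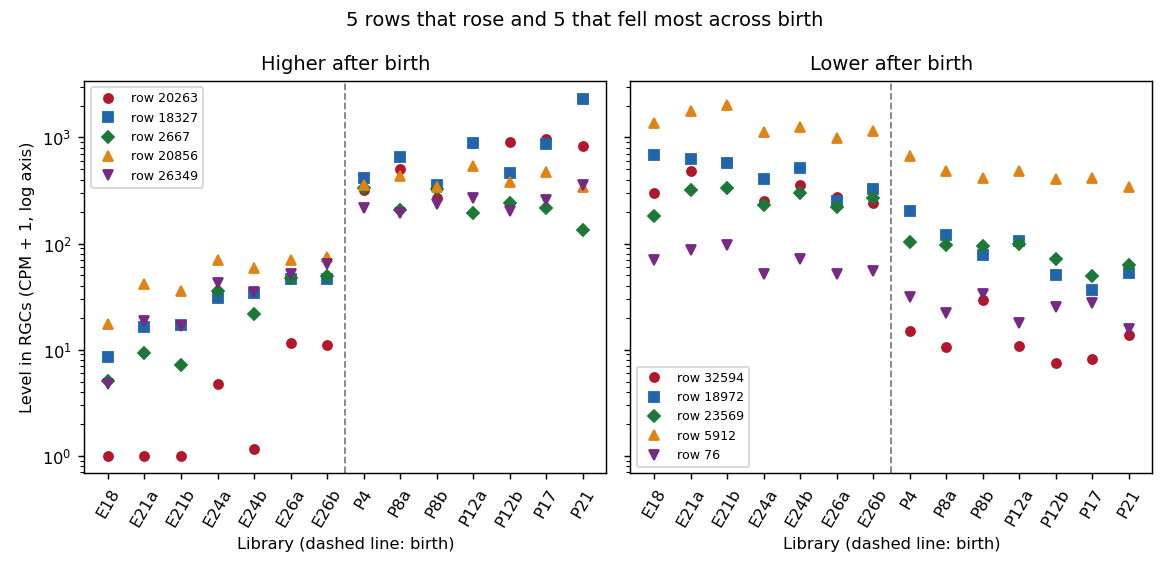
Levels in RGCs (CPM + 1, log axis) of the 5 rows with the largest rise (left) and the 5 with the largest fall (right) among members whose stages do not overlap, 1 point per library. In each row every postnatal point lies on 1 side of every embryonic point, and row 20263 sits at 0 CPM in E18, E21a and E21b.

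Among the 10 highest scores the stages behaved unlike each other. Row 11720 (653 to 1187 CPM before birth, 1615 to 3483 CPM after it), row 17562 (100 to 140 CPM, then 255 to 602 CPM) and row 3853 (295 to 509 CPM, then 991 to 2657 CPM) rose with no overlap, with log2 fold changes of 1.36, 1.66 and 1.75. Row 21522 ran from 266 to 708 CPM (median 571) and then from 629 to 1962 CPM (median 1158). Its stages overlapped through P17, and its log2 fold change was 1.10 ± 0.27 (SE, edgeR, adjusted p = 0.0026). Row 11721 was also called higher, at 0.75 ± 0.26 (SE), with overlap. Row 29700 was called lower (-0.54 ± 0.21, SE, edgeR, adjusted p = 0.036), but that call was lost when any 1 of 8 libraries (E24a, E24b, E26a, E26b, P8b, P12b, P17 or P21) was left out, with adjusted p from 0.051 to 0.070. Row 20743 (347 to 1058 CPM, then 493.1 to 1204 CPM) and row 16487 (151 to 482 CPM, then 108 to 399 CPM) did not pass, with adjusted p of 0.84 and 0.12.

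**Figure D4:**
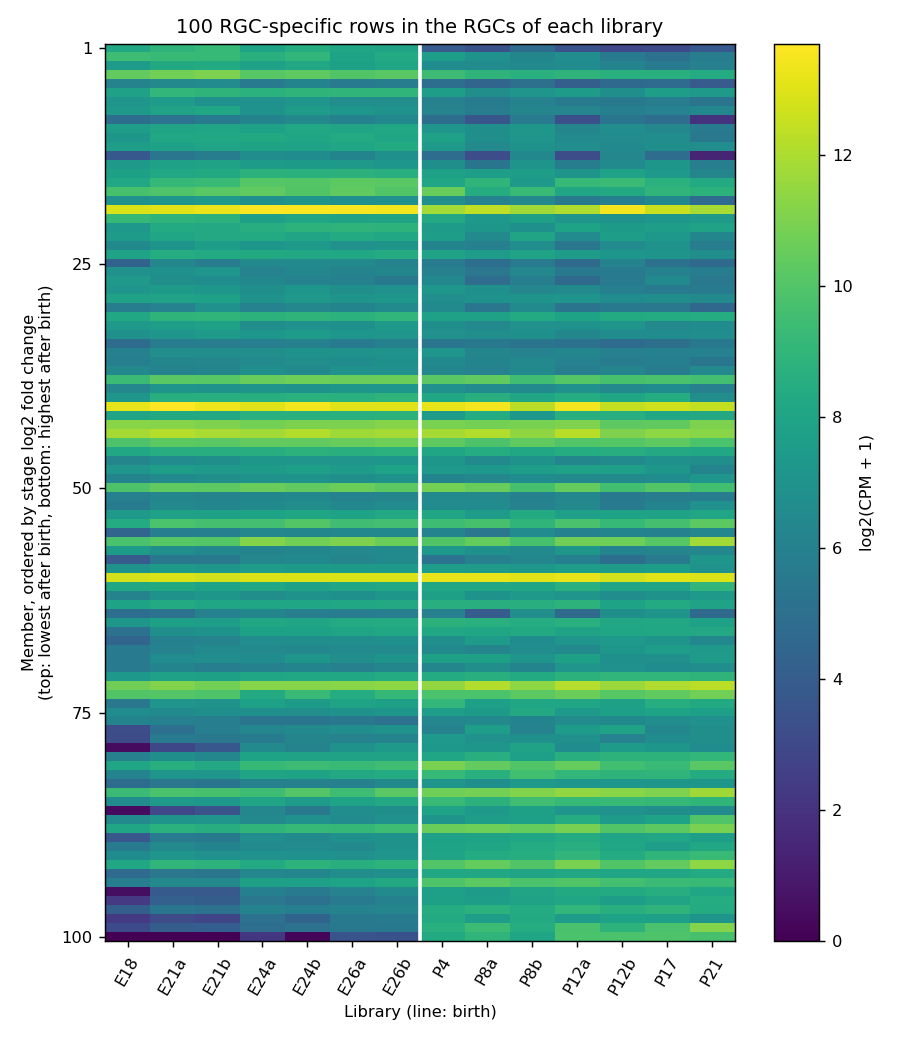
log2(CPM + 1) of the 100 rows (y axis, ordered by stage log2 fold change) in the RGCs of the 14 libraries (x axis, white line at birth). The bottom rows are dark before birth and brighter after it, the top rows the reverse, and a few abundant rows such as row 6525 are bright throughout.

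Before birth most members that changed with age went up. A slope per embryonic day was fitted with edgeR over the 7 embryonic libraries, where 96 members passed the filter. Of these, 50 rose with age (against 12.2% of all rows tested) and 8 fell (against 10.2%), 58 in all against 22.4% of all rows. E24 and E26 gave more of the RGC UMIs that chose the members than E18 and E21 did. The balance of rises and falls thus rests partly on the rule here too. Without E18, the only library of its age and the one with the lowest summed share, 33 rose and 12 fell, against 7.27% and 5.3% of all rows. Of the 30 members that were higher after birth, 21 also rose over embryonic days (24.3% of all rows that were higher after birth did so), and so did 14 of the 41 that were lower after birth (3.71% of all such rows). Both calls use the embryonic libraries.

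Row 2667 climbed fastest, from 4.11 CPM at E18 through 6.17 and 8.22 CPM at E21 to 46.2 and 48.7 CPM at E26. Its slope was 0.49 ± 0.05 log2 per day (SE, edgeR, adjusted p = 7.1e-05). Row 26349 rose by 0.43 ± 0.04 and row 4694 by 0.39 ± 0.05 log2 per day (SE), the latter from 8.33 CPM at E18 to 104 and 124 CPM at E26. Falls were smaller. Row 24344 went from 163 CPM at E18 to 63.5 and 46.2 CPM at E26, with a slope of -0.18 ± 0.03 log2 per day (SE). Row 11721 (-0.18 per day) and row 9670 (-0.18 per day, from 586 CPM at E18 to 233 and 253 CPM at E26) were the other 2 with the steepest falls. In row 11721 the drop lay between E21 (1027 and 966 CPM) and E24 (334 and 589 CPM).

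After birth few members were called for a change with age within RGCs, which does not show that the others were stable. In simulated counts this fit found 1% of rows changed by 1 on the log2 scale over these days. Of rows changed by 2 it found 43%. Each simulated row had the same dispersion and the changed rows were abundant ones, so these shares need not hold for the members. Of 97 tested over the 7 postnatal libraries, 2 rose (1.73% of all rows tested) and 5 fell (1.35% of all rows), 7 in all against 3.08% of all rows. Libraries of the same age could lie far apart. Row 20747 had 11127 and 5000 CPM in P8a and P8b, and 11001 and 5551 CPM in P12a and P12b. Row 12205 had 8.52 and 82.7 CPM, and 8.39 and 79.0 CPM, in the same libraries. The source of this spread was not tested. The 2 that rose were row 23383 (134 CPM at P4, 997 CPM at P21, 0.15 log2 per day) and row 18327 (413 CPM at P4, 2309 CPM at P21, 0.14 log2 per day). The steepest falls were those of row 18972 (203 CPM at P4, 52.1 CPM at P21, -0.12 per day), row 26738 (224 CPM at P4, 44.4 CPM at P21, -0.11 per day) and row 5523 (150 CPM at P4, 50.8 CPM at P21, -0.09 per day). None of the 7 calls was made without an end of the series, and calls over all rows also became few. Without P4 edgeR called 0 of 98 members (0.841% of all rows) and without P21 0 of 98 (0.189% of all rows), with 18 at an unadjusted p below 0.05 in each case, and without P8a it called 4 (2.01%). With all libraries 31 members had an unadjusted p below 0.05, and DESeq2 called 12 (5.44% of all rows). The shares of all rows at an unadjusted p below 0.05 were not computed.

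In Early_NG the members were present at a small fraction of their RGC level. Over the 7 embryonic libraries, the mean level in Early_NG was 0.352% to 42.4% of that in RGCs of the same libraries, with a median of 8.36%, and it was under 10% for 54 members. In Early_RPC the median was 4.01% and in HC 10.6%. For 27 members Early_NG exceeded Early_RPC in 7 of 7 libraries (22 without cells of high UMI count, defined below), and for 1 it was lower in 7 of 7. How many of all rows did so was not counted, so these counts describe the members and do not set them apart. After thinning to 1000 UMIs the median cell held 5 members in Early_NG, 4 in Early_RPC and 7 in HC, against 23 in embryonic RGCs. Free RNA in droplets gives UMIs in cells that do not express a gene, and its part in these low levels was not tested.

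The highest ratios to RGC were those of row 23383 (42.4%), row 14119 (37.5%), row 2667 (36.0%), row 6525 (35.1%) and row 5523 (32.4%). Row 6525, the most abundant member, ran from 2905 to 6055 CPM in Early_NG (median 3285) against 7715 to 12595 CPM in RGCs (median 11235), and the groups did not overlap. Row 2667 had 6.70 to 10.8 CPM in Early_NG (median 8.25), and in 2 of 7 libraries it was above the RGC level, which began at 4.11 CPM at E18.

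E26a stood apart in Early_NG. The members held 0.927% to 1.11% of Early_NG UMIs in the other 6 embryonic libraries and 1.71% in E26a. That excess was found in its cells of high UMI count, those with over 2 times the median UMIs of the Early_NG cells in their library. The 75 such cells of E26a (median 16983 UMIs) held 2.14% of their UMIs in the members, against 1.05% in its other 350 Early_NG cells. In the other embryonic libraries the Early_NG cells of high UMI count held 0.758% to 1.21%. Without cells of high UMI count all 7 libraries lay between 1.00% and 1.21%. Thinned to 1000 UMIs, 2 of the 75 cells reached the tenth percentile of RGCs of E26a, which was 17 members. No doublet caller was run, no cell was removed, and whether these cells were 2 cells in 1 droplet was not tested.

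**Figure D5:**
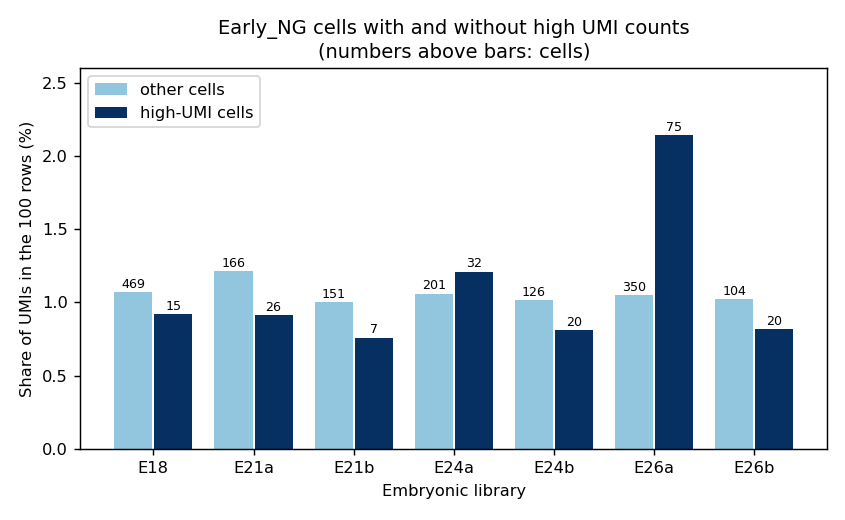
Share of UMIs in the 100 rows (%, y axis from 0) in Early_NG cells of each embryonic library, in cells of high UMI count (dark bars) and in all other cells (light bars), with the number of cells above each bar. The dark bar of E26a, 75 cells at 2.14%, stands above all others, which are at 1.21% or less.

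Trends of the members in Early_NG depended on these cells. Of 53 members tested over embryonic days, 10 rose (4.62% of all rows tested) and 3 fell (2.62%), 13 in all against 7.24% of all rows. Without cells of high UMI count 2 rose and 6 fell of 40 tested (2.54% and 1.6% of all rows), and without E26a 3 rose and 7 fell (2.82% and 1.93% of all rows). Without E18 6 rose and 1 fell (1.98% and 0.864% of all rows), and without E24a 5 rose and 3 fell (3.23% and 1.9%). The balance of rises and falls was thus turned by 1 library. Row 666 had 6.72 to 109 CPM in the other 6 libraries and 523 CPM in E26a, with a slope of 0.76 ± 0.13 log2 per day (SE) that became 0.43 without E26a. Cells of high UMI count gave most of its molecules, since 344 of 2501 Early_NG UMIs remained without them.

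Row 366 (6.39 to 24.6 CPM in the other 6 libraries, 124 CPM in E26a) rose by 0.49 log2 per day, a call that was lost without E26a (edgeR, adjusted p = 0.19). Row 5527 rose by 0.43 log2 per day, and by 0.22 without E26a. Falls were seen for row 18972 (149 CPM at E18, 30.5 and 14.9 CPM at E26, -0.32 per day), row 18787 (95.4 CPM at E18, 20.4 and 14.03 CPM at E26, -0.30 per day) and row 2360 (542 CPM at E18, 312 and 235 CPM at E26, -0.13 per day). Rows 18972 and 18787 also fell in RGCs over the same days, by 0.15 and 0.11 log2 per day. The call on row 18972 was lost without E18 (adjusted p = 0.17, edgeR), and that on row 2360 without E18, E21a, E21b, E24b or E26b (adjusted p from 0.050 to 0.21, edgeR).

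The slopes of RGCs and Early_NG were compared directly in 1 edgeR model with the library as a block. The difference, RGC slope minus Early_NG slope, was called for 31 of 99 members (8.07% of all rows tested), positive for 12 (2.43% of all rows) and negative for 19 (5.64%). In the simulated counts this fit found 0% of rows changed by 1 or by 2 on the log2 scale. Members without a call are thus not shown to have like slopes. Of the 99, 46 did not pass the filter in Early_NG alone and entered through their RGC counts, for which they had been chosen; 14 of the 19 negative and 3 of the 12 positive calls were among these 46. The balance also turned. It was 37 positive and 5 negative without cells of high UMI count (4.47% and 4.64% of all rows), and again 37 and 5 without E26a (4.15% and 6.25% of all rows). Leaving out E18, E21a, E21b or E24a brought the count to 16 or 17, and the share of all rows to between 2.17% and 5.38%. The 3 largest positive differences kept their calls under both settings. Row 2667 differed by 0.45 ± 0.06 log2 per day (SE, edgeR, adjusted p = 0.00016), row 12205 by 0.34 ± 0.07 and row 9670 by 0.31 ± 0.07. Row 12205 was not called without E18 (0.18, adjusted p = 0.43, edgeR).

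The 3 most negative differences were those of rows with almost no molecules in Early_NG. Row 30874 (-1.62 log2 per day) had 38 Early_NG UMIs in all, 3 of them outside cells of high UMI count. Row 2856 (-1.02) had 34 and 7, and row 15373 (-0.84) had 25 and 3. The median Early_NG library had 0 CPM of each of the 3. None of these calls was kept without cells of high UMI count (edgeR, adjusted p of 0.33, 0.42 and 0.37), and the calls on row 2856 and row 15373 were lost without E26a (0.61 and 0.52). All 3 calls were also lost without E18, E21a, E21b or E24a, and that on row 30874 without E24b.

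AC, the type next to RGC for 44 members, carried the members at a larger fraction of their RGC level than BC did. Over the 7 postnatal libraries the mean level in AC was 0.647% to 78.4% of that in RGCs, with a median of 19.1%. In BC the median was 8.70%, over the 6 libraries with BC, which leave out P4. The AC level was under 10% of the RGC level for 34 members and above 50% for 7, and for 0 members did the AC mean exceed the RGC mean. The AC mean was above that of each of the other 9 types with at least 10 cells in a postnatal library, RGC aside, for 36 members, and AC was above BC in all 6 libraries with BC for 51. Neither was counted over all rows, so both counts describe the members and do not set them apart. The summed share in AC was 1.04% to 1.43% (mean 1.25% ± 0.129, SD, n = 7), against 0.683% to 1.40% in BC (mean 0.983% ± 0.258, SD, n = 6). In postnatal HC it was 0.877% to 1.30% (mean 1.11% ± 0.149, SD, n = 6), nearer to AC than BC was. The ranges of BC and of HC both overlapped that of AC. The type ratios follow in part from the selection, which used the same counts.

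The 5 members with the highest AC level as a share of the RGC level are given next. Row 23569 had 44.1 to 77.7 CPM in AC (median 67.03) and 48.6 to 101.4 CPM in postnatal RGCs, a ratio of 78.4%, with AC above RGC in 2 of 7 libraries. Row 2354 was at 66.8%, row 314 at 64.3%, row 76 at 58.2% and row 32595 at 56.0%. All 5 were lower in RGCs after birth by edgeR, with log2 fold changes from -1.82 to -0.91, which itself raises this ratio since the postnatal RGC level is its denominator. Row 76 differed from the other 4 in that BC held only 1.83% of the RGC level. At the other end, row 21522 had 2.55 to 20.1 CPM in AC (median 5.59), 0.647% of the RGC level, and row 9670 had 0.279 to 2.79 CPM (median 1.44), 0.741%.

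Over postnatal days, 82 members could be tested in AC. Of these 14 rose (5.89% of all rows tested) and 6 fell (3.7%), 20 in all against 9.59% of all rows. Row 20263, without a UMI in the RGCs of E18 and E21, had 9.29 CPM in AC at P4, 3.91 and 8.62 CPM at P8, 21.5 and 8.82 CPM at P12, 69.3 CPM at P17 and 144 CPM at P21. Its slope was 0.28 ± 0.04 log2 per day (SE, edgeR, adjusted p = 0.0025). Of its 1504 postnatal AC UMIs, 572 remained without cells of high UMI count. The part of free RNA in AC levels was not tested either. Row 18327 (8.36 CPM at P4, 62.9 CPM at P21, 0.18 per day) and row 23383 (23.2 CPM at P4, 149 CPM at P21, 0.15 per day) were the other steepest rises, and both calls were lost without P21 (edgeR, adjusted p of 0.39 and 0.63). The call on row 23383 was also lost without cells of high UMI count (edgeR, adjusted p = 0.11).

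Falls in AC were led by a pair of consecutive rows. Row 1394 went from 484 CPM at P4 to 70.5 CPM at P21, with a slope of -0.18 ± 0.03 log2 per day (SE, edgeR, adjusted p = 0.0037). Row 1395 went from 37.2 CPM at P4, through a highest value of 55.6 CPM at P8a, to 10.9 CPM at P21 (-0.14 per day). The call on row 1395 was lost without P8a, P17, P21 or cells of high UMI count (edgeR, adjusted p from 0.084 to 0.26). Row 5523 went from 49.2 CPM to 9.38 CPM (-0.17 per day), and its call was lost without P21 (edgeR, adjusted p = 0.066). Without P21, 4 members rose and 1 fell, and calls over all rows also dropped, from 9.59% to 2.38%. Without P8a 9 rose and 3 fell (5.91% of all rows called), and without cells of high UMI count 8 rose and 8 fell (3.98% and 2.96% of all rows). In P17 and P21 those cells, 266 and 380 in number, held 1.58% and 1.36% of their UMIs in the members, against 1.14% and 1.01% in the other AC cells.

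Postnatal slopes were also compared between RGCs and AC, again with the library as a block. The RGC slope minus the AC slope was called for 26 of 100 members (6.24% of all rows tested), positive for 4 (2.14%) and negative for 22 (4.1%). In the simulated counts this fit found 0% of rows changed by 1 on the log2 scale and 5% of those changed by 2. Of the 100, 18 did not pass the filter in AC alone and entered through their RGC counts, and 5 of the 22 negative calls were among these 18. The negative ones were led by row 20263 (-0.24 ± 0.05 log2 per day, SE, edgeR, adjusted p = 0.0070), row 12057 (-0.22 ± 0.04) and row 12058 (-0.22 ± 0.06). Rows 12057 and 12058 are consecutive, and their AC levels were low, at 1.44 to 23.5 and 1.12 to 17.0 CPM, each highest in P21. Without P21 the calls on all 3 were lost (edgeR, adjusted p of 0.19, 0.35 and 0.78), and that on row 12058 also without P8a (0.092). The count was 12 without P8a (3.47% of all rows) and 13 without P21 (2.41%), and the positive ones numbered 1 without P8a, P8b, P17 or P21.

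The 4 positive differences included row 1395 (0.13 ± 0.04 log2 per day, SE), row 1394 (0.12 ± 0.03) and row 6525 (0.12 ± 0.03). Row 6525, the most abundant member, had 692 to 2320 CPM in AC with its lowest value in P21. In postnatal RGCs it had 3448 to 11293 CPM with its highest value in P12b. P12a, of the same age, had 4255.5 CPM, so this spread is not one of age alone. Calls on rows 1394 and 1395 were lost without P8a, P8b, P17, P21 or cells of high UMI count (edgeR, adjusted p from 0.054 to 0.30), and that on row 6525 without P4 (0.10). For row 1394 the postnatal levels in RGCs were 1465 CPM at P4 and 261 to 612 CPM later, so that it was high at P4 in both types.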

How the data were processed

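Whole 13LGS retinas were profiled as 10x Chromium 3′ v3.1 libraries. The authors aligned and counted reads in CellRanger 3.1.0, with HiC_Itri_2 as the reference assembly, combined the libraries with its aggr step and named cell types in Seurat 4.0.4 from marker genes. The deposited values are raw UMI counts per matrix row and cell, and a cell table gives each cell's time point and type. Cell filters, doublet removal before deposit and any depth equalisation by aggr were not given in the sources used here.

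P1 had 2 library suffixes and 1 sample in the labels, so its 6920 cells (13.0%) were not used. Groups were the time points of the labels, and the letters a and b are names only. The gene name list (30265 entries against 34181 rows) was not used.

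Counts were summed per library and type, for types with at least 10 cells in the library. CPM in the text is UMIs per 1000000 UMIs of that sum. Tests used edgeR 4.0.16 (quasi-likelihood, filterByExpr, TMM) in R 4.3.3, fitted over all rows, with Benjamini-Hochberg adjustment over all rows tested and a threshold of 0.05. SE is the fold change divided by the square root of F. Depth was 640859 to 12495373 UMIs per RGC sum. Alternatives were DESeq2 1.42.0, its size factors, TMM without the members, all rows with at least 10 counts, thinning, each library left out, and no cells above 2 times the median UMIs of their library and type. Scripts were tested on simulated data. Intervals were not computed for single counts.

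Rows named were the 10 highest scores, ranks 98 to 103, the 5 largest rises and falls across birth among members with no overlap, the 3 steepest slopes in each direction of each trend, and the 5 highest Early_NG and AC ratios to RGC. The 5 most abundant members, the 7 pairs of consecutive rows, the rows at the CPM limit and the lowest AC ratios were chosen after their values were seen. The members and lists were chosen with earlier results of these data known.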

Additional observations from a re-analysis of the deposited data

Results flagged for a closer look

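Of 42 groups of 7 libraries checked for a single library far from the others, 6 were set apart. The groups were the summed share of the members in RGC, Early_NG, Early_RPC, HC and AC, and the RGC levels of the rows with the largest changes or highest scores. Chance alone does so in about 1 of 20 groups of like libraries. Libraries here differed in age and rows were chosen for their values, so that rate need not hold. Row 16487 was called as rising over embryonic days and row 18327 over postnatal days. The summed share in embryonic RGCs was 4.99% in E18, against 6.04% in the next library, and that in embryonic Early_NG was 1.71% in E26a, against 1.11%. In embryonic HC it was 1.29% in E21b, against 1.39%. Row 16487 had 151 CPM in the RGCs of E18, against 395 CPM in the next library. Among postnatal RGCs, row 32594 had 28.1 CPM in P8b against 14.02 CPM in the next library, and row 18327 had 2309 CPM in P21 against 878 CPM.

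Slopes that differed between types by the test of the difference itself were also set apart. Between RGCs and Early_NG these were 31 members over embryonic days (edgeR), among them row 2667 (0.45 log2 per day), row 12205 (0.34), row 9670 (0.31), row 30874 (-1.62), row 2856 (-1.02) and row 15373 (-0.84). Between RGCs and AC they were 26 members over postnatal days, among them row 1395 (0.13), row 1394 (0.12), row 6525 (0.12), row 20263 (-0.24), row 12057 (-0.22) and row 12058 (-0.22). Of the 31, 17 did not pass the filter on low counts in Early_NG alone, and of the 26, 5 did not pass it in AC alone. These entered through the RGC counts for which they had been chosen. Rows 30874, 2856 and 15373 had 38, 34 and 25 Early_NG UMIs in all. The dependence of these differences on single libraries and on cells of high UMI count is given beside each value above.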

How the results depend on the processing

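No paired analysis was possible because the library suffixes carry no replicate number by which libraries of different ages could be blocked; cell types of 1 library were blocked by library in the differences of slopes. Under DESeq2's size factors and TMM without the members, every count of called members stayed within 1.5 times its value. Of the 100 members, 64 were chosen again from embryonic and 52 from postnatal libraries alone, and 94 to 99 with 1 library left out. With 1 library left out, called members numbered 66 to 71 across birth (27 to 31 higher, 37 to 42 lower), 45 to 60 over embryonic days in RGCs (33 to 52 rising, 8 to 12 falling), 0 to 7 over postnatal days in RGCs (0 to 3 rising, 0 to 5 falling), 7 to 16 in Early_NG (3 to 13 rising, 1 to 7 falling), 5 to 19 in AC (4 to 14 rising, 1 to 5 falling), 16 to 42 for RGC minus Early_NG (4 to 37 positive, 5 to 23 negative) and 12 to 29 for RGC minus AC (1 to 4 positive, 11 to 25 negative). The share of all rows called with 1 library left out ran from 48% to 54% across birth. Over days it ran from 12.6% to 23.1% (embryonic RGCs), 0.189% to 4% (postnatal RGCs), 2.85% to 7.11% (Early_NG) and 2.38% to 10.6% (AC). For RGC minus Early_NG it was 2.17% to 10.4%, and for RGC minus AC 2.41% to 8.7%. With all rows of at least 10 counts, 4 were called over postnatal days in RGCs (2 falling), 32 in Early_NG (26 rising, 6 falling) and 47 for RGC minus Early_NG (33 negative). The shares of all rows called were then 2.61%, 5.88% and 6.7%. DESeq2 called 12 over postnatal days in RGCs (5 rising), against 5.44% of all rows. Without cells of high UMI count, 8 were called in Early_NG (2 rising, 6 falling), against 4.13% of all rows, and 8 rose in AC (3.98% of all rows). RGC minus Early_NG was then positive for 37 and negative for 5 (4.47% and 4.64% of all rows). The cause of these shifts was not tested. For the named rows, 700 of 775 alternative values kept direction and side of the threshold, 73 lost the call, 1 gained it, 1 ratio (row 23383, Early_NG to RGC) moved to 49.3%, and 0 changed sign with a call. Depth limits what can be said of rows with few UMIs in Early_NG and AC.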
